A study of Mus musculus with 16 samples.

Results

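The data described here are the response of lymph node lymphatic endothelial cells (LECs) that lack Clever-1 to an inflammatory injection. Clever-1 is the scavenger and adhesion receptor encoded by *Stab1*. The comparison used the 8 libraries of the knockout (KO) animals among the 16 libraries of the series: 4 libraries from Stab1-/- mice at steady state (KO) and 4 from Stab1-/- mice taken 1 day after ovalbumin (OVA) was injected with Freund's adjuvant into the footpad (KO inflamed). The other 8 libraries came from wild-type (WT) mice in the same states and entered only where the responses of the genotypes are set side by side. Each library pooled the cells of 2 mice aged 6 to 12 weeks. The methods say that both sexes were used. The labels name the strain C57BL/6, whereas the methods give C57BL/6N mixed with 129SvJ.

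All 4 groups hold live cells from the popliteal and brachial nodes that were sorted as CD45- CD31+ podoplanin+. Both KO groups share the deletion, so their difference measures the OVA response in its presence. The sources describe the deletion as that of the mouse line and name no Cre driver, so as far as they say the loss is not limited to LECs. No sham injection is described for the steady state animals, and no group received adjuvant alone, so the effects of OVA, adjuvant and injection cannot be told apart. The labels call the adjuvant complete and the methods call it incomplete.

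LECs line the sinuses of the lymph node, through which lymph, soluble antigen and migrating leukocytes pass. They differ by position: cells of the floor and ceiling of the subcapsular sinus and cells of the medullary sinus express different scavenger receptors, chemokine receptors and lectins. In an immune response the node enlarges, its lymphatic vessels remodel and proliferate, and the cells receive interferon and cytokine signals. LECs also present antigen and handle chemokines, for which they carry atypical receptors that bind chemokines without classical signalling.

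*Stab1* was at 5.09, 6.07, 6.66 and 5.72 TPM in the 4 KO libraries and at 6.43, 5.85, 8.90 and 8.62 TPM in the 4 KO inflamed libraries, against a mean of 241 TPM in WT at steady state. The low level held in every KO library, and the KO states overlapped (log2 fold change 0.28, adjusted p = 0.123). TPM, the level of a gene's transcripts after each library has been scaled to the same total, keeps no sequencing depth. Depth is therefore unknown here, and precision rests on the spread among 4 libraries per group. Changes are given as log2 fold changes of KO inflamed over KO on the log2(TPM + 1) scale, which understates changes of genes at low level.

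The sort markers were present in all 8 libraries. *Pecam1*, which encodes CD31, was at 813, 772, 869.6 and 817 TPM in KO and 1126, 1202, 1082 and 1046 TPM in KO inflamed (log2 fold change 0.44). *Pdpn*, which encodes podoplanin, was at 66.3, 73.0, 67.8 and 65.8 TPM in KO and 144, 149.9, 161 and 153 TPM in KO inflamed (log2 fold change 1.14, and 0.90 after rescaling). *Prox1*, the master regulator of the lymphatic fate, was at 64.3, 61.0, 83.3 and 53.5 TPM and 104, 104, 82.5 and 102 TPM, with overlapping libraries (log2 fold change 0.58). *Ptprc*, which encodes CD45, was at 1.03 to 1.84 TPM in KO and 0.423 to 0.624 TPM in KO inflamed.

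Leukocyte and red cell transcripts were measurable beside this identity and most were lower after OVA. The summed level of 16 macrophage and monocyte markers went from 506 ± 59.7 TPM (SD, n = 4) to 149.9 ± 26.1 TPM, that of 16 T and NK cell markers from 251 ± 23.5 TPM (SD, n = 4) to 179 ± 10.02 TPM, and that of 6 pan-leukocyte markers from 96.4 ± 9.17 TPM (SD, n = 4) to 41.0 ± 3.45 TPM (exact permutation test, two-sided, p = 0.0286 for each, the smallest value that 4 against 4 libraries allow, 0.0327 after adjustment over 16 library values compared). Some defining markers were at or near 0, such as *Vsig4*, at 0 in all 8 libraries, and *Flt3*, *Itgax*, *Cd8a* and *Pax5*, under 1 TPM in all 8. Under 1 TPM in all 8 were 3 of 16 macrophage and monocyte markers and 3 of 16 T and NK cell markers. So were 1 of 10 B and plasma cell, 6 of 16 neutrophil, 4 of 7 dendritic cell and 0 of 6 pan-leukocyte markers. The other markers of these lists reached 1 TPM in at least 1 library. In a bulk sample fewer cells of a type and less RNA per cell cannot be told apart, and the part of these cells in the results below was not tested. Of the Y-linked genes, *Uty*, *Kdm5d* and *Eif2s3y* were at 0 and *Ddx3y* was under 1 TPM in the 8 libraries. *Ccl21a*, a chemokine LECs are known for, was listed at 0 in all 8.

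A gene entered the test when at least 4 of the 8 libraries held at least 1 TPM, which left 12161 genes. A gene was called when it had an adjusted p of 0.05 or less and a log2 fold change of 1 or more in either direction, and only called genes are said below to have risen or fallen. After OVA 780 genes rose (6.41% of the genes tested) and 372 fell (3.06%), together 9.47%. The KO inflamed and KO libraries did not overlap for 1107 of these 1152 genes, against 54.1% of all genes tested. The calls were made on the same 8 libraries, so a high share is built into them and is no separate support.

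The whole distribution moved as well. The median log2 fold change of all genes was 0.24 as deposited and 0.02 after the libraries were rescaled by their median ratio, a shift of 0.22. After rescaling 418 genes rose (3.44%) and 593 fell (4.88%), together 8.31%, so the share of calls that were higher went from 67.7% to 41.3%. All 418 genes higher after rescaling were among the 780, and all 372 lower as deposited were among the 593, so that rescaling removed 362 calls of higher genes and added 221 of lower genes. Values below are those as deposited. Where rescaling ends the call of a gene described below, this is said beside it.

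**Figure D1:**
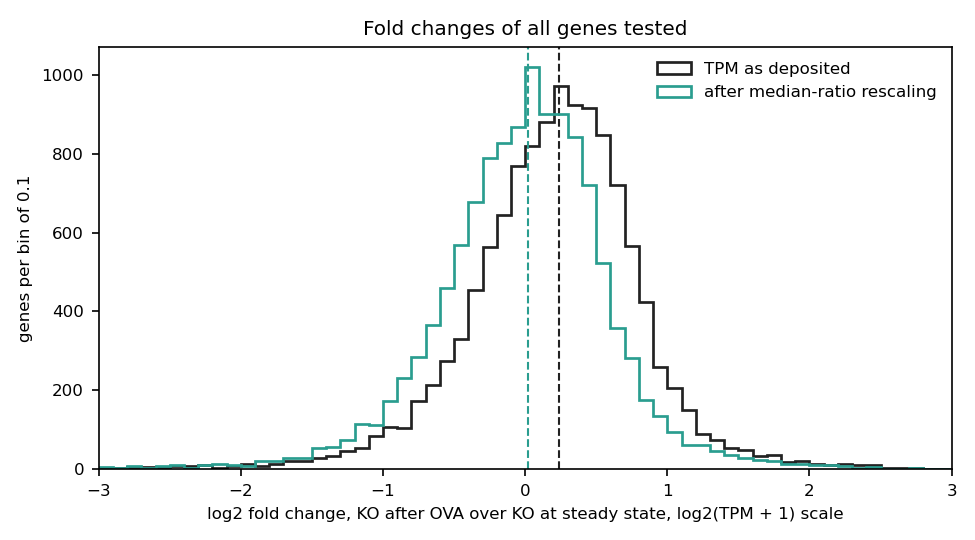
Histogram of the log2 fold change (KO after OVA over KO at steady state, log2(TPM + 1) scale) of the 12161 genes tested, in bins of 0.1, with the number of genes on the vertical axis. The black line shows the values as deposited, with the median at 0.24, and the green line those after median-ratio rescaling, with the median at 0.02.

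The gene that rose most among protein-coding genes was *Fgf23*, a hormone better known from bone, where it lowers phosphate uptake by the kidney (chromosome 6, positions 127072902 to 127082296, build GRCm38.p6). It was at 3.27, 2.78, 4.88 and 2.26 TPM in KO and at 76.6, 83.7, 131 and 76.5 TPM in KO inflamed. Every OVA library was above every steady state library, with a log2 fold change of 4.43 ± 0.21 (SE, adjusted p = 4.69e-07).

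Behind it came secreted and membrane proteins of several kinds. *Wfdc17* went from 11.2, 7.95, 4.47 and 10.3 TPM to 229.8, 107, 168 and 227 TPM (log2 fold change 4.28 ± 0.28). *Car4*, a membrane-anchored carbonic anhydrase, went from 4.78, 8.21, 2.94 and 4.52 TPM to 64.2, 119, 374 and 38.0 TPM (log2 fold change 4.15 ± 0.57, and 3.53 without KO inflamed replicate 3). *Itih4*, a plasma protein of the inter-alpha-trypsin inhibitor family, went from between 0.277 and 1.65 TPM in KO to between 23.2 and 36.8 TPM in KO inflamed (log2 fold change 4.04). The signalling adaptors *Sh2d5* and *Akap12*, the latter an anchoring protein for protein kinase A, rose by 3.38 and 3.005 on the log2 scale. All KO libraries held *Sh2d5* under 1 TPM, as they did for 51 of the 780 genes that rose, which entered the test only through the OVA libraries, and 46 of the 372 that fell entered only through the KO libraries. Such genes had to differ. *Wisp2*, a matricellular protein, rose by 2.97 on the log2 scale, and the Schlafen family member *Slfn9* by 2.71.

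*Gpx3*, the secreted glutathione peroxidase, went from 33.1, 34.5, 43.5 and 53.02 TPM to 218, 169.7, 517 and 285 TPM (log2 fold change 2.72 ± 0.29). The groups did not overlap, but the KO inflamed libraries of *Gpx3* and *Car4* were widely spread, with replicate 3 highest in both. *Hif1a*, the oxygen-sensitive subunit of the hypoxia-inducible factor, rose from 23.8, 22.4, 23.2 and 19.8 TPM to 118, 115, 121 and 145 TPM (log2 fold change 2.43 ± 0.09). Of 13 hypoxia targets and regulators tested only *Hif1a* and *Adm*, which encodes the lymphatic growth peptide adrenomedullin (log2 fold change 1.55), rose, and the list had a median of 0.36.

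**Figure D2:**
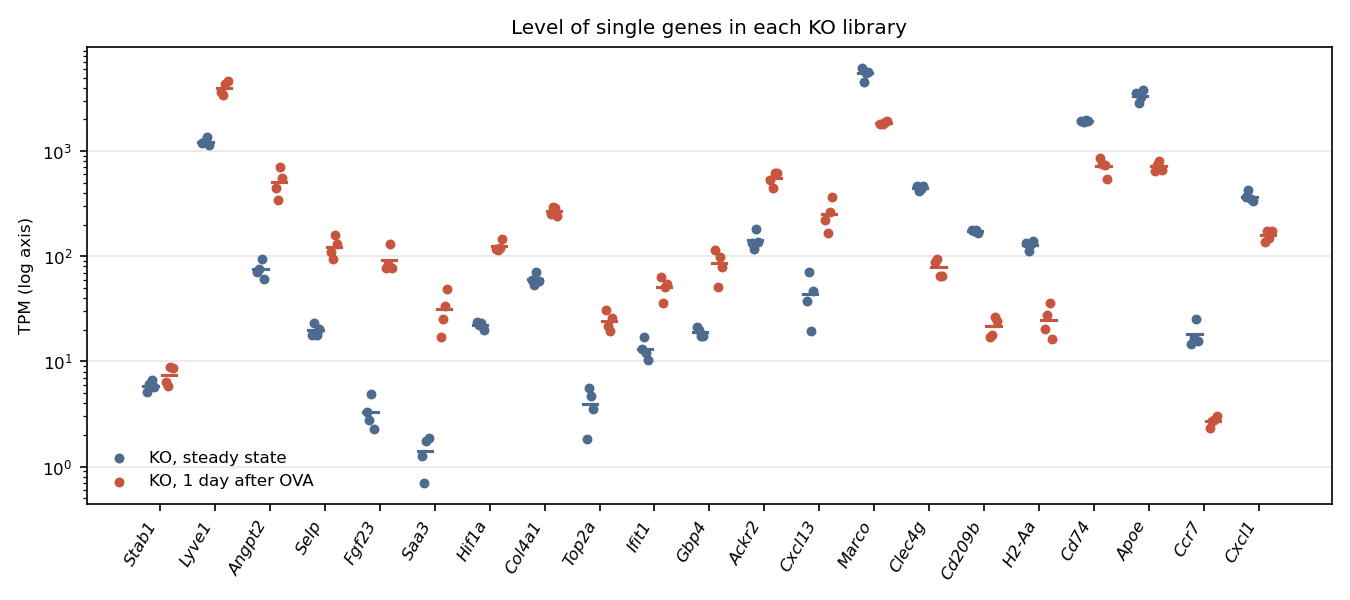
Level (TPM, log axis) of selected genes, each point being a library and each line the mean of its group, with the 4 KO libraries in blue and the 4 KO inflamed libraries in red. *Fgf23*, *Lyve1* and *Ackr2* lie higher and *Marco*, *Clec4g* and *H2-Aa* lower in all 4 KO inflamed libraries than in any KO library, and *Stab1* overlaps.

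Of the 58 gene lists described, the list of mitosis had the largest share of genes that rose. Of 30 genes tested 27 rose and none fell, with a median of 1.78, against 0.24 over all genes, and all 27 kept their call after rescaling. *Plk1*, a kinase that drives entry into and passage through mitosis, was at 1.77, 2.66, 3.51 and 2.12 TPM in KO and 19.2, 15.2, 15.6 and 17.6 TPM in KO inflamed (log2 fold change 2.37 ± 0.16, adjusted p = 2.39e-06). *Top2a*, the topoisomerase that untangles chromosomes, was at 1.83, 5.54, 4.67 and 3.55 TPM and 30.9, 21.6, 19.5 and 26.0 TPM (log2 fold change 2.43 ± 0.24). For all 30 genes the libraries of the states did not overlap, against 54.1% of all genes tested.

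Genes of the spindle and the kinetochore moved by similar amounts. *Prc1*, which bundles the microtubules of the central spindle, rose by 2.21 on the log2 scale, the Aurora kinase *Aurkb* by 2.27, and the kinetochore partners *Ndc80* and *Nuf2* by 2.09 and 2.09. *Ccna2*, *Ccnb1* and *Cdk1*, the cyclins and the kinase that drive cells from S phase into mitosis, rose by 1.85 on the log2 scale, 1.91 and 1.98. The transcription factor *Foxm1*, which drives many of these genes, rose by 1.74 on the log2 scale, and the proliferation marker *Mki67* by 1.49. Their levels stayed modest: the summed level of the 30 genes went from 148 ± 28.6 TPM (SD, n = 4) to 533 ± 81.7 TPM. KO inflamed replicate 1 was the highest library for 17 of the 27 genes.

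Genes of DNA replication followed. Of 38 tested 26 rose and none fell (median 1.14), and 17 kept their call after rescaling. *Rrm2*, the subunit of ribonucleotide reductase that limits nucleotide supply, went from 2.77, 4.88, 5.59 and 2.76 TPM to 25.8, 19.1, 20.2 and 32.9 TPM (log2 fold change 2.37 ± 0.23). The groups were wide apart. *Cdc6*, which loads the replicative helicase, rose by 2.22 on the log2 scale, *Uhrf1*, which carries DNA methylation through replication, by 1.94, the histone chaperone subunit *Chaf1a* by 1.84, thymidine kinase *Tk1* by 1.84 and the helicase cofactor *Gins1* by 1.78.

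Promoters of mitotic genes are known for the cell cycle genes homology region (CHR, TTTGAA) beside CCAAT boxes. RefSeq windows of 300 bases (250 before and 50 after the start, build GRCm38.p6) were found for 25 of the 30 mitosis genes, 27 windows in all. TTTGAA, searched on both strands, was in 21 of the 27 windows (77.8%), against 17.9% of all 32841 windows and 8.11% of those of DNA replication genes. CCAAT, also on both strands, was in 85.2% of them, against 37.4% of all windows, 56.8% of those of DNA replication genes and 80.0% of those of cholesterol synthesis genes. A match is a description of the letters and not of a bound site. Windows to print were picked among called genes whose window holds both motifs, so the motifs are there by choice. The windows of 3 such genes with large changes are printed 5′ to 3′ to show the arrangement, with both motifs in capitals, which overlap in none of them. They lie at chr11:99024140-99024439 (minus strand, *Top2a*), chr7:122159185-122159484 (plus strand, *Plk1*) and chr7:80294201-80294500 (plus strand, *Prc1*).
Top2a: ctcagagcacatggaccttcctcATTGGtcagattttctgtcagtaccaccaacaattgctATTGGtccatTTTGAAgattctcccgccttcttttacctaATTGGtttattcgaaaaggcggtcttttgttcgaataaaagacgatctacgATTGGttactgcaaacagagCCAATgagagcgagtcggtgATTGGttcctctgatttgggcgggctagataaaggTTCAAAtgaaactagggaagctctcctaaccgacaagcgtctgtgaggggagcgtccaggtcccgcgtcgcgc
Plk1: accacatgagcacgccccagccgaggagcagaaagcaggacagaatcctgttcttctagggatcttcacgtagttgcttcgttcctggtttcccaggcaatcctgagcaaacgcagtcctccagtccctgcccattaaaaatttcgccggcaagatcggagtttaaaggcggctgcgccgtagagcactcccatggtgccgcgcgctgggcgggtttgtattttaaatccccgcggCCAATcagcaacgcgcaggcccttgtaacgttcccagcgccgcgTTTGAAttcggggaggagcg
Prc1: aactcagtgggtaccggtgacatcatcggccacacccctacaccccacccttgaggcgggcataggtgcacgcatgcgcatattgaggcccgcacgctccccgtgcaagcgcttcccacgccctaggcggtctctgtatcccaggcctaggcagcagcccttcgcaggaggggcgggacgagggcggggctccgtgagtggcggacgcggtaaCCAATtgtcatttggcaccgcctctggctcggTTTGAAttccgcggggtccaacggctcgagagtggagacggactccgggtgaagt

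Part of the interferon-stimulated genes rose as well. They are induced by type I interferon and encode antiviral effectors and sensors of foreign RNA. Of 42 tested 18 rose and none fell (median 0.89), but only 8 of the 18 kept their call after rescaling. *Ifit1*, which binds foreign RNA ends, was at 13.2, 16.99, 12.1 and 10.3 TPM in KO and 63.2, 35.6, 51.3 and 54.5 TPM in KO inflamed (log2 fold change 1.87 ± 0.18, adjusted p = 1.66e-05). *Ifit2*, a relative of it, was at 38.0, 41.9, 25.6 and 27.3 TPM and 172, 75.7, 147 and 148 TPM (log2 fold change 1.97 ± 0.24). In both genes the groups stood apart and KO inflamed replicate 2 was the lowest library with OVA, as it was for all 18 genes called.

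*Oas2*, which makes the activator of RNase L, rose by 1.67 on the log2 scale, *Rsad2*, which encodes viperin, by 1.61, *Ifi44* by 1.49 and *Cmpk2* by 1.36. In *Rsad2* the groups met, with KO replicate 2 at 31.2 TPM and KO inflamed replicate 2 at 30.6 TPM. The transcription factor *Stat2*, which carries the interferon signal, rose by 1.04 on the log2 scale as deposited and missed the size threshold after rescaling (0.80). It also missed it without KO replicate 4 (0.97) and without KO inflamed replicate 1 or 3 (0.99 each).

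Genes known to respond to interferon gamma, chiefly the guanylate-binding proteins and the immunity-related GTPases that attack vacuoles of pathogens, rose in 15 of 22 cases (median 1.15), none fell, and 8 kept their call after rescaling. *Gbp4* was at 21.5, 20.1, 17.4 and 17.3 TPM in KO and 114, 50.7, 99.0 and 79.3 TPM in KO inflamed (log2 fold change 2.06 ± 0.21, adjusted p = 2.13e-05). *Iigp1*, the most abundant of those named, was at 165, 150.3, 141 and 135 TPM and 643, 408, 623 and 604 TPM (log2 fold change 1.92 ± 0.13). *Gbp7* rose by 1.86 on the log2 scale, *Gbp5* by 1.79, and *Gbp6* and *Gbp10* by 1.44 and 1.44. Replicate 2 was the lowest KO inflamed library for 13 of the 15 genes, and replicate 1 the highest for 14.

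Promoters of such genes are known for the interferon-stimulated response element. Its core, GAAA 2 times in a row with any 2 bases between, searched on both strands, was in 14 of 34 windows of type I genes (41.2%, 30 genes matched) and in 11 of 18 windows of interferon-gamma-type genes (61.1%, 15 genes), against 3.44% of all windows. Among the called genes it was in 7 of 15 windows of type I genes (46.7%) and in 9 of 10 windows of interferon-gamma-type genes (90.0%). Here too the windows to print were picked among called genes whose window holds the element. A window of each list is printed with the element in capitals, on the strand opposite to the letters above: *Ifit1*, with 2 matches, at chr19:34640639-34640938 (plus strand), and *Gbp7* at chr3:142530086-142530385 (plus strand).
Ifit1: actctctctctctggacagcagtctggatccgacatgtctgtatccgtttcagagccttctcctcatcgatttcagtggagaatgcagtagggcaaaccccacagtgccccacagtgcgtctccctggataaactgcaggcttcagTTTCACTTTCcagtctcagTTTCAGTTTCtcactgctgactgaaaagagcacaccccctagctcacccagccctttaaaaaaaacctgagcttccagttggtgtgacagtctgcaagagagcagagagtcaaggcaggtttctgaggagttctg
Gbp7: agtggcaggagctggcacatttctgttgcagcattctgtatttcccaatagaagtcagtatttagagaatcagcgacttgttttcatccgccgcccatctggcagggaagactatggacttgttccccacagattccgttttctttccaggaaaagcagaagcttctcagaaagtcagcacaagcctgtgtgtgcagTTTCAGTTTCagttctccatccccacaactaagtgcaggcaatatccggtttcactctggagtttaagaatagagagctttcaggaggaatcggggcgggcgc

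Antigen presentation genes did not move with them. Of 12 MHC class II genes tested 7 fell and none rose (median -1.18), and 9 were lower after rescaling. *H2-Aa*, the alpha chain of I-A, was at 133, 112, 130.1 and 141 TPM in KO and 20.4, 27.5, 35.8 and 16.2 TPM in KO inflamed (log2 fold change -2.38 ± 0.20, adjusted p = 6.42e-06). *Cd74*, the invariant chain that guides class II molecules to the endosome, was at 1932, 1906, 1956 and 1918 TPM and 866, 748, 745 and 541 TPM (log2 fold change -1.43 ± 0.12). All 12 genes were without overlap between the groups, against 54.1% of all genes tested. Of the 12, 1 was higher after OVA (log2 fold change 0.84, not called). *H2-Ab1*, *H2-Eb1*, *H2-Oa* and *H2-DMa* fell with log2 fold changes of -1.84, -1.75, -1.76 and -1.24. *H2-Oa* passed the minimum of 1 TPM only through its KO libraries, so it had to differ. The macrophage marker sum, whose ratio of KO inflamed to KO was 0.296, moved with the class II genes that fell. So did B cell markers with a ratio of 0.560, and the part of these cells was not tested.

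Among 15 class I heavy chains tested only *H2-Q7*, a nonclassical molecule of the Qa-2 group, fell, from between 1211 and 1387 TPM in KO to between 475 and 543 TPM in KO inflamed (log2 fold change -1.33 ± 0.06). *H2-Q* genes are close copies of each other, so the assignment of reads to *H2-Q7* is uncertain. None of 10 genes of peptide loading and the immunoproteasome was called.

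Chemokines moved in both directions. Of 11 inflammatory CC chemokines tested 3 rose and 1 fell (median 0.29). In the list of CXC chemokines and fractalkine, which leaves out *Cxcl13*, 0 of 7 rose and 2 fell (median -0.46). The families were not tested against each other. *Ccl20*, the ligand of CCR6 and known in LECs of the subcapsular sinus floor, was at 47.0, 33.6, 32.6 and 21.1 TPM in KO and 117, 109.8, 96.6 and 141 TPM in KO inflamed (log2 fold change 1.80 ± 0.20). *Ccl9* rose by 1.93 on the log2 scale, and *Ccl2*, the main attractant of monocytes, by 1.15 as deposited and 0.90 after rescaling, below the threshold, as it was without KO replicate 1 (0.98) or KO inflamed replicate 3 (0.94). *Cxcl1*, an attractant of neutrophils, fell from 365, 423, 352 and 335 TPM to 137, 175, 149.96 and 175 TPM (log2 fold change -1.21 ± 0.10), with no overlap. *Ccl8* fell too (log2 fold change -1.41). So did *Pf4*, known from platelets and macrophages, from between 129 and 157 TPM in KO to between 13.6 and 26.0 TPM in KO inflamed (log2 fold change -2.87). The macrophage marker sum moved with it, with a ratio of KO inflamed to KO of 0.296, and its part was not tested, while the platelet markers *Ppbp* and *Gp9* were under 1 TPM in all 8 libraries.

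*Cxcl13*, the B cell attractant that stromal cells of the follicle are known for, rose from 37.6, 70.9, 19.3 and 46.8 TPM to 219.6, 166, 262 and 365 TPM (log2 fold change 2.59 ± 0.34). *Ccr7*, the receptor by which dendritic and T cells follow CCL21, fell from 14.5, 16.8, 25.6 and 15.7 TPM to 2.32, 2.72, 2.75 and 3.02 TPM (log2 fold change -2.34 ± 0.17). Neither gene overlapped between the states. The T and NK cell marker sum was lower with *Ccr7* (ratio of KO inflamed to KO 0.714), whereas the dendritic cell sum was not (ratio 1.19). The part of these cells in the *Ccr7* values was not tested. The sum of 12 stromal markers, *Cxcl13* among them, went from 453 ± 96.5 TPM (SD, n = 4) to 841 ± 167 TPM (exact permutation test, p = 0.0286, and 0.0571 after rescaling), and its part in the *Cxcl13* values was not tested.

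The atypical chemokine receptors moved apart. *Ackr2* (chromosome 9, positions 121898355 to 121911075), which scavenges inflammatory CC chemokines and which the study singled out after OVA, was at 133, 117, 183 and 137 TPM in KO and 527, 442, 619 and 614 TPM in KO inflamed (log2 fold change 1.95 ± 0.14, adjusted p = 3.15e-06). All 4 OVA libraries were above all steady state libraries. *Ackr4*, which scavenges CCL19, CCL21 and CCL25 in ceiling LECs, was at 475, 603, 611 and 560.4 TPM and 273, 483, 152 and 124 TPM (log2 fold change -1.32 ± 0.34, adjusted p = 0.00686). KO inflamed replicate 2 overlapped the KO libraries, while the others lay below them, and without it the log2 fold change was -1.69. The remaining 3 receptors were not called.

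Of 17 cytokine and growth factor genes tested 3 rose and 1 fell. *Csf2*, the growth factor GM-CSF and also singled out by the study, was at 5.06, 5.57, 2.94 and 4.52 TPM in KO and 10.2, 13.1, 16.9 and 6.03 TPM in KO inflamed (log2 fold change 1.13 ± 0.27, adjusted p = 0.00414). The groups did not overlap, though replicate 4 of the OVA group came close to the KO libraries, and the rescaled change of 0.91 missed the threshold, as did the change without KO replicate 3 (0.98) or KO inflamed replicate 3 (0.93). *Csf3*, the growth factor of neutrophils, rose by 1.11 on the log2 scale, with KO inflamed replicate 3 at 86.7 TPM and the others between 27.5 and 32.9 TPM, and by 0.74 without that replicate, below the threshold. *Il33*, an alarmin stored in the nucleus, rose from between 271 and 335 TPM in KO to between 599.7 and 740.1 TPM in KO inflamed (log2 fold change 1.18). *Csf3* and *Il33* also missed the threshold after rescaling (0.87 and 0.93), so that 1 of the 3 higher cytokine genes was left without KO inflamed replicate 3 and none after rescaling. *Il1b* fell from 15.5, 16.4, 11.1 and 11.1 TPM to 2.75, 0.965, 9.64 and 3.45 TPM (log2 fold change -1.73 ± 0.41).

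Among 21 receptors of cytokines tested 3 rose and 2 fell. *Osmr*, the oncostatin M receptor, rose from between 35.3 and 53.7 TPM in KO to between 113 and 129 TPM in KO inflamed (log2 fold change 1.49). *Il4ra* and *Tnfrsf11a*, which encodes RANK, rose by 1.14 and 1.14 on the log2 scale as deposited and by 0.90 and 0.90 after rescaling, below the threshold. *Il3ra* fell with a log2 fold change of -1.10, as did the decoy receptor *Il1r2* (-1.06), which missed the threshold without KO replicate 3 (-0.96) or KO inflamed replicate 1 (-0.83). None of 24 NF-kB subunits and inhibitors was called, and 1 was higher when KO replicate 1 or 3 or KO inflamed replicate 2 was left out. *Nfkbia*, the inhibitor that NF-kB itself induces, was at 989.6 to 1209 TPM in KO and 678 to 904 TPM in KO inflamed (log2 fold change -0.49).

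Of 15 sensors of innate immunity 3 rose, all with their call kept after rescaling. *Tlr3*, the endosomal receptor of double-stranded RNA and the third gene the study singled out, was at 13.96, 15.4, 15.9 and 12.6 TPM in KO and 45.2, 30.5, 43.6 and 44.7 TPM in KO inflamed (log2 fold change 1.43 ± 0.13, adjusted p = 1.38e-05). *Cd14*, the coreceptor for lipopolysaccharide, was at 57.7, 78.7, 52.2 and 66.4 TPM and 158, 114, 246 and 183 TPM (log2 fold change 1.41 ± 0.20). *Tlr13*, a sensor of bacterial ribosomal RNA, rose from between 0.268 and 0.923 TPM in KO to between 2.58 and 5.60 TPM in KO inflamed (log2 fold change 1.498), and passed the minimum of 1 TPM only through its OVA libraries. None of these genes overlapped.

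Acute-phase and metal-binding proteins had 7 of 15 higher and 2 lower (median 1.00). *Saa3*, a serum amyloid A made outside the liver, was at 1.26, 0.696, 1.76 and 1.88 TPM in KO and 17.1, 25.1, 33.8 and 49.2 TPM in KO inflamed (log2 fold change 3.68 ± 0.29, adjusted p = 4.49e-06). *Serpina3n*, an inhibitor of serine proteases, was the most abundant, at 514, 409.5, 484 and 533 TPM and 2024, 1857, 1333 and 1524 TPM (log2 fold change 1.78 ± 0.13). Genes of iron and zinc handling were in this group: the siderophore binder *Lcn2* rose by 2.28 on the log2 scale, the zinc and iron importer *Slc39a14* by 2.41 and the metalloreductase *Steap4* by 2.40. *Ptx3*, a soluble pattern recognition protein and marker of a medullary subset of LECs, rose by 2.17 on the log2 scale. The metallothionein *Mt1* and haptoglobin (*Hp*) fell (log2 fold change -1.18 and -1.30).

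Vascular growth factors and adhesion molecules changed in a few members. *Angpt2* (chromosome 8, positions 18690263 to 18741562), the TIE2 ligand that activated endothelium releases and that lymphatic remodelling requires, was at 70.4, 75.0, 94.4 and 61.4 TPM in KO and 446, 345, 704 and 558 TPM in KO inflamed (log2 fold change 2.72 ± 0.20, adjusted p = 3.19e-06). *Vegfc*, the main lymphatic growth factor, rose from between 0.533 and 1.65 TPM in KO to between 4.14 and 5.22 TPM in KO inflamed (log2 fold change 1.37), and its receptor *Flt4* from between 194 and 276 TPM in KO to between 481 and 562 TPM in KO inflamed (log2 fold change 1.14, and 0.90 after rescaling, below the threshold). The remaining 11 genes of this system were not called.

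*Selp*, the P-selectin that captures leukocytes, was at 17.7, 22.99, 18.0 and 20.1 TPM in KO and 111, 94.1, 159 and 132 TPM in KO inflamed (log2 fold change 2.57 ± 0.15, adjusted p = 1.03e-06). *Mcam* rose by 1.37 on the log2 scale. *Madcam1*, the ligand of integrin alpha4 beta7 and a marker of the sinus floor, fell from 851, 899, 855 and 762 TPM to 469, 470.1, 382 and 364 TPM (log2 fold change -1.004 ± 0.09), a value at the threshold that missed it without KO replicate 1, 2 or 3 or KO inflamed replicate 3 or 4 (-0.998 to -0.94). *Glycam1*, an L-selectin ligand of high endothelial venules, was at 4454, 5191, 3873 and 4239.8 TPM and 2115, 3183, 1533 and 1595 TPM (log2 fold change -1.13 ± 0.20), and *Fut7*, the fucosyltransferase that completes such ligands, was at 16.1, 17.7, 13.5 and 13.7 TPM and 0.927, 10.8, 2.25 and 1.06 TPM (log2 fold change -2.20 ± 0.47). KO inflamed replicate 2 was highest in both and closest to the steady state, and without it *Fut7* had a log2 fold change of -2.78. The sum of 13 markers of blood endothelium and high endothelial venules went from 6226 ± 477 TPM (SD, n = 4) to 3811 ± 855 TPM, but most of it is *Glycam1*, and the other 12 markers together were at 1787 ± 94.5 TPM (SD, n = 4) and 1704 ± 133 TPM, with overlapping libraries. By gene, 10 of the 13 were tested, of which 2 fell, none rose and only 1 had a log2 fold change above 0. Their median was -0.50, against 0.24 over all genes. After rescaling 4 fell, with a median of -0.74.

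At the junctions, *Gja1*, which encodes connexin 43, rose from between 55.2 and 71.6 TPM in KO to between 164 and 234 TPM in KO inflamed (log2 fold change 1.63), and *Ctnna1*, which links cadherins to actin, from between 170.5 and 226 TPM in KO to between 482 and 493 TPM in KO inflamed (log2 fold change 1.29). *Cldn11*, a claudin of tight junctions, fell from between 62.1 and 71.4 TPM in KO to between 21.9 and 31.2 TPM in KO inflamed (log2 fold change -1.27). The remaining 10 junction genes tested were not called.

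The extracellular matrix was among the groups with the most calls. Of 14 basement membrane genes 8 rose and none fell (median 1.18), and 6 kept their call after rescaling. *Col4a1* and *Col4a2*, the chains of the collagen IV network, rose together: *Col4a1* from 59.5, 53.3, 71.0 and 58.6 TPM to 250.2, 294, 291 and 239 TPM (log2 fold change 2.13 ± 0.10) and *Col4a2* from 25.9, 23.9, 29.0 and 26.9 TPM to 122, 143, 139 and 108 TPM (log2 fold change 2.23 ± 0.10). *Nid1*, which ties collagen IV to laminin, went from 127, 127, 175 and 102 TPM to 655, 663, 620.2 and 580.4 TPM (log2 fold change 2.26 ± 0.13, adjusted p = 1.11e-06). None of these 3 genes overlapped. The laminin chains *Lamb1* and *Lamc1* rose by 1.47 and 1.70 on the log2 scale and *Nid2* by 1.34. KO inflamed replicate 4 was the lowest OVA library for all 8 genes. Markers of fibroblastic stroma, cells that also make matrix, were higher in the same libraries: their sum rose 1.86-fold, 4 of 12 were called, among them *Col3a1* (log2 fold change 1.37) and *Dcn* (log2 fold change 1.56), and their part in the matrix and protease genes was not tested.

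Proteases that cut matrix, with their inhibitors, rose in 7 of 14 cases, 5 of them also after rescaling, and none fell. *Adamts1*, which cleaves proteoglycans, was at 16.1, 19.0, 19.7 and 15.2 TPM in KO and 99.5, 101, 161 and 118 TPM in KO inflamed (log2 fold change 2.69 ± 0.15, adjusted p = 8.84e-07). *Adamts5* and *Adamts4*, of the same family, rose by 2.37 and 1.60 on the log2 scale, the membrane protease *Mmp14* by 1.31 and the inhibitor *Timp1* by 1.495. *Plaur*, the urokinase receptor, rose from between 26.7 and 33.0 TPM in KO to between 74.9 and 149.8 TPM in KO inflamed (log2 fold change 1.74) and the inhibitor *Tfpi2* by 1.49. The anticoagulant receptor *Thbd* and the plasminogen activator *Plat* rose as deposited (log2 fold change 1.18 and 1.14) and missed the threshold after rescaling (0.93 and 0.90), the latter also without KO inflamed replicate 3 (0.99).

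Markers of LEC position in the node moved in both directions. *Marco* (chromosome 1, positions 120474538 to 120505024), a scavenger receptor of medullary sinus LECs, was at 6206, 4528, 5566 and 5602 TPM in KO and 1804, 1828, 1900.2 and 1927 TPM in KO inflamed (log2 fold change -1.54 ± 0.08, adjusted p = 8.05e-07). *Clec4g*, a lectin of the same cells also called LSECtin, was at 464, 415, 438 and 470.3 TPM and 89.2, 94.8, 64.7 and 65.1 TPM (log2 fold change -2.52 ± 0.12). *Lyve1* (chromosome 7, positions 110850607 to 110862953), the hyaluronan receptor of lymphatic endothelium, moved the other way, from 1201, 1217, 1361 and 1146 TPM to 3625, 3392, 4352 and 4651 TPM (log2 fold change 1.69 ± 0.10, adjusted p = 1.07e-06). None of the 3 genes overlapped between the states.

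Of 18 subset markers tested 4 rose and 5 fell, and all 9 kept their call after rescaling. The falling ones were *Marco*, *Clec4g*, *Cldn11*, *Ackr4* and *Madcam1*. The rising ones were *Ccl20*, *Ptx3*, the potassium channel *Kcnj8* (log2 fold change 1.68) and the adhesion receptor *Adgrg3* (log2 fold change 1.56). Of 19 general LEC identity genes 4 rose, *Lyve1*, *Mmrn1* (log2 fold change 1.43), *Flt4* and *Pdpn*, and the first 2 kept their call after rescaling. *Cd209b* and *Cd209d*, C-type lectins related to DC-SIGN that were picked after their values were seen, fell far: *Cd209b* from 179, 173, 179 and 165 TPM to 17.1, 17.9, 26.6 and 24.5 TPM (log2 fold change -2.98 ± 0.13) and *Cd209d* (log2 fold change -2.89). Reads of such close relatives could be split between them, which leaves each value uncertain, and the same holds for the *Gbp* and haemoglobin genes. The macrophage marker sum, with a ratio of KO inflamed to KO of 0.296, moved with *Cd209b* and *Cd209d*, and the part of these cells was not tested.

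Other genes with the lowest values, also picked after their values were seen, included *Bpifb2*, a relative of the bactericidal permeability-increasing protein, at 11.8, 10.7, 13.7 and 10.3 TPM in KO and 0.0945, 0.119, 0 and 0.361 TPM in KO inflamed (log2 fold change -3.46 ± 0.14), and its neighbour in the family *Bpifb3* (log2 fold change -3.32). Those genes were close to 0 in every OVA library. They passed the minimum of 1 TPM only through their KO libraries, so they had to differ. The carbonyl reductase *Cbr2* had a log2 fold change of -3.01, the sodium pump regulators *Fxyd1* and *Fxyd2* of -2.71 and -2.42, and the alcohol dehydrogenase *Adh1* of -2.30. *Fxyd2* too passed the minimum only through its KO libraries. *Timd4* and *Folr2*, known from resident macrophages, fell (log2 fold changes -2.63 and -2.68), beside the fall of the macrophage sum.

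Scavenger receptors other than *Marco* and *Lyve1* held 1 further call: *Olr1*, the receptor of oxidised LDL, was at 0.0701 to 0.274 TPM in KO and 2.83 to 6.27 TPM in KO inflamed (log2 fold change 2.18 ± 0.19), with all KO values under the minimum of 1 TPM, so that it was not tested when an OVA library was left out. Of the immune checkpoint and tolerance genes *Cd200* rose from between 13.7 and 30.3 TPM in KO to between 52.0 and 65.3 TPM in KO inflamed (log2 fold change 1.62), *Cd276*, which encodes B7-H3, from between 0.859 and 2.72 TPM in KO to between 6.62 and 12.6 TPM in KO inflamed (log2 fold change 2.09), and the costimulator *Cd86*, known from myeloid cells, fell from between 1.41 and 3.37 TPM in KO to between 0.187 and 0.836 TPM in KO inflamed (log2 fold change -1.11), with low values that left it untested without any 1 KO library.

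Lipid genes moved in both directions. Of 24 genes of cholesterol synthesis 7 rose and none fell (median 0.72), and 3 of the 7 kept their call after rescaling. *Sqle*, the squalene epoxidase, was at 19.2, 16.5, 19.7 and 14.6 TPM in KO and 64.2, 51.4, 47.2 and 50.8 TPM in KO inflamed (log2 fold change 1.55 ± 0.12). *Idi1* and *Lss*, also enzymes of this pathway, rose by 1.59 and 1.47 on the log2 scale, whereas *Hmgcs1*, which acts at its start, rose by 1.20 as deposited and 0.96 after rescaling, below the threshold.

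*Apoe*, the apolipoprotein that carries cholesterol out of cells, fell from 3563, 2860.4, 3276 and 3783 TPM to 651, 741, 808 and 666 TPM (log2 fold change -2.23 ± 0.10, adjusted p = 4.27e-07), and the transfer protein *Pltp* fell from between 20.6 and 30.8 TPM in KO to between 4.20 and 10.8 TPM in KO inflamed (log2 fold change -1.96). *Lpl*, the lipase that releases fatty acids from lipoproteins, rose from between 10.8 and 11.9 TPM in KO to between 32.8 and 48.6 TPM in KO inflamed (log2 fold change 1.71). *Apoe* is abundant in macrophages, whose marker sum fell as well, and the part of these cells was not tested. *Hpgd*, which degrades prostaglandins, rose by 1.72, and *Ltc4s*, which makes leukotriene C4, fell from between 249 and 314 TPM in KO to between 97.3 and 115 TPM in KO inflamed (log2 fold change -1.44).

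Protein folding in the endoplasmic reticulum gave 5 higher genes of 23, *Hspa5*, *Hsp90b1*, *Pdia3*, *Pdia6* and *Dnajc3*, but only *Hspa5*, the chaperone BiP, kept its call after rescaling (0.82 to 0.87 for the others). It was at 883, 848, 967 and 801 TPM in KO and 2501, 2184, 2231 and 2228 TPM in KO inflamed (log2 fold change 1.39 ± 0.07, adjusted p = 4.76e-07). Of the antioxidant genes *Gpx4*, which protects membrane lipids, fell from between 1133 and 1369 TPM in KO to between 466 and 517 TPM in KO inflamed (log2 fold change -1.34) and *Sod1* from between 282 and 336 TPM in KO to between 141 and 152 TPM in KO inflamed (log2 fold change -1.07).

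Ribosomal protein genes were lower as a group. Of 75 tested 15 fell and none rose (median -0.79), and 41 fell after rescaling. *Rps27*, of the small subunit, was at 4322, 4816, 3850.2 and 4889 TPM in KO and 1602, 1604, 1646 and 1676 TPM in KO inflamed (log2 fold change -1.45 ± 0.07, adjusted p = 5.31e-07). The libraries of the states did not overlap for 69 of the 75 genes, against 54.1% of all genes tested. Together these genes held 76375 TPM in KO and 42120 TPM in KO inflamed on average. None of 33 ribosome biogenesis genes was called, though up to 2 rose when a library was left out (2 without KO replicate 2 or KO inflamed replicate 3).

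Of the 24 immediate early genes 3 fell and 1 rose. *Junb* fell from 649, 676, 684 and 618 TPM to 332, 362, 337 and 246 TPM (log2 fold change -1.05 ± 0.11), *Ier2* from between 248 and 266 TPM in KO to between 116 and 139 TPM in KO inflamed (log2 fold change -1.02) and *Fosb* from between 75.6 and 87.0 TPM in KO to between 25.9 and 51.9 TPM in KO inflamed (log2 fold change -1.01). The groups did not overlap. All 3 lost the call without KO inflamed replicate 4, the lowest library in each, with -0.93, -0.98 and -0.82 on the log2 scale. *Fosb* also lost it without KO replicate 2 (-0.98). *Klf6* rose by 1.04 on the log2 scale as deposited and 0.80 after rescaling, below the threshold.

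Several lists held no call in either direction as deposited, among them 60 genes of oxidative phosphorylation (median -0.33), 17 of glycolysis (0.58), 18 of the citric acid cycle (0.32) and 15 heat shock proteins (0.41). After rescaling 2 genes of oxidative phosphorylation fell, and without KO replicate 3 a heat shock gene rose. The libraries of the states did not overlap for 45 of these 60 genes, against 54.1% of all genes tested. Over the 58 lists, 963 distinct genes were tested, of which 180 rose and 76 fell.

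**Figure D3:**
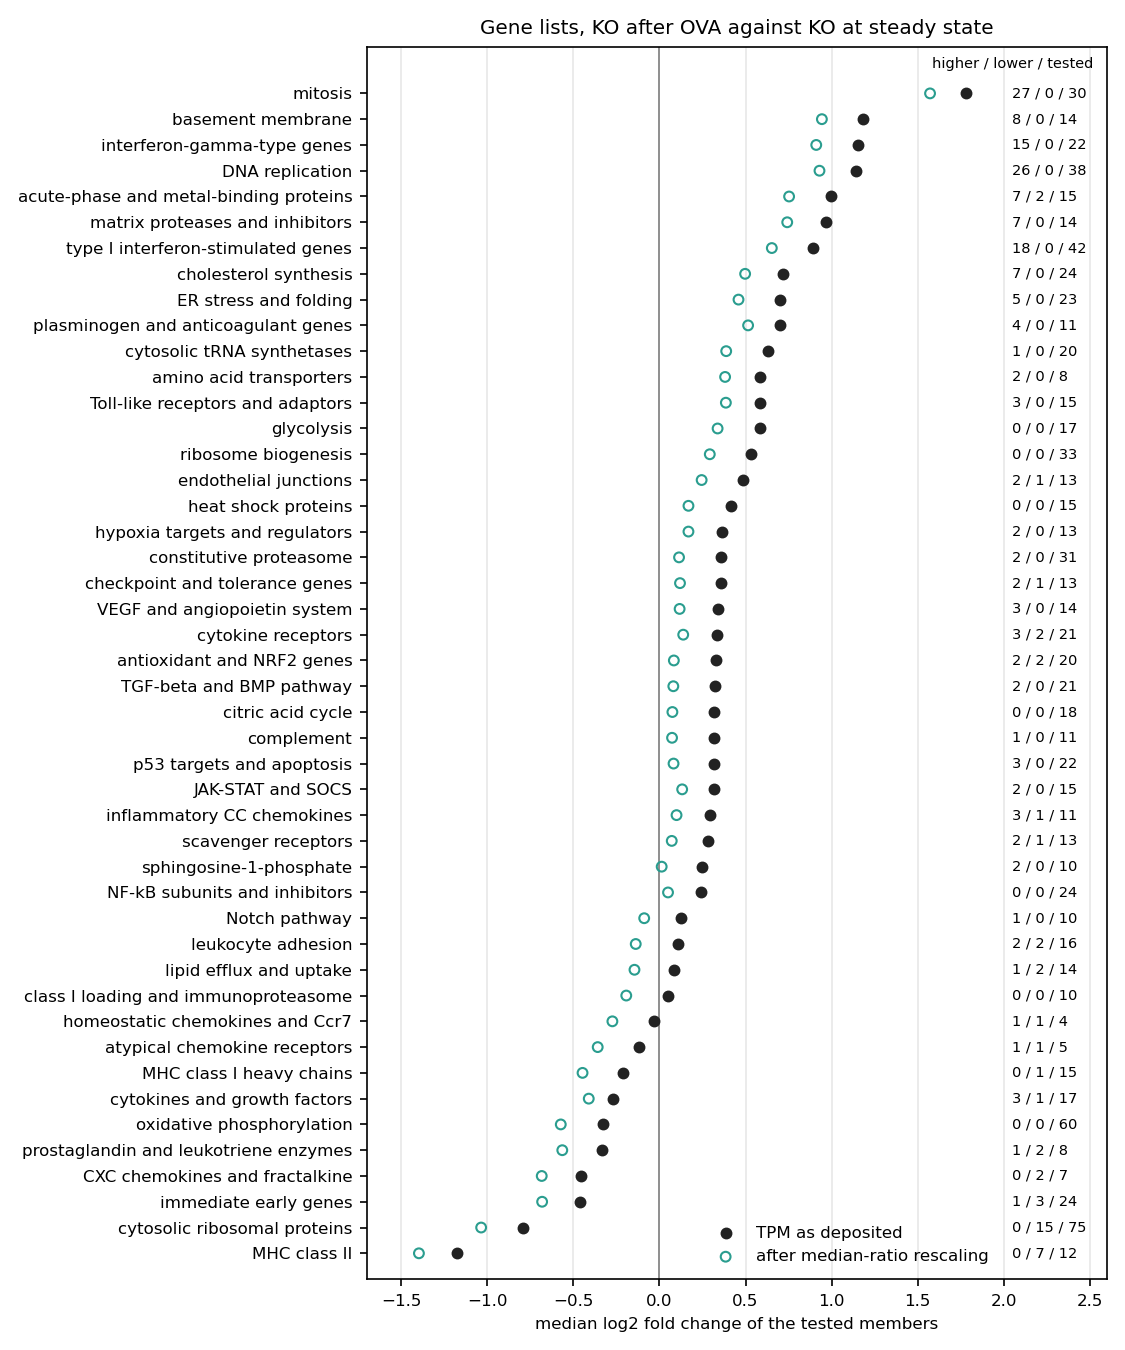
Median log2 fold change (KO after OVA over KO, log2(TPM + 1) scale) of each gene list other than cell type markers, as deposited (filled points) and after median-ratio rescaling (open points), with the numbers of genes that rose, fell and were tested at the right. Mitosis is at the top with a median of 1.78, and MHC class II and the cytosolic ribosomal proteins lie below 0 under both scalings.

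The sums of cell type markers describe the sorted fraction. The LEC identity sum rose from 3942 ± 324 TPM (SD, n = 4) to 7864 ± 383 TPM, and most of the rise was *Lyve1*. Without it the sum went from 2711 ± 241 TPM (SD, n = 4) to 3859 ± 256 TPM, still without overlap. The sum of LEC subset markers went from 9764 ± 864 TPM (SD, n = 4) to 5682 ± 357 TPM, and without *Marco* from 4288 ± 264 TPM (SD, n = 4) to 3817 ± 409 TPM, with overlap. Red cell markers had the lowest ratio of the sums, from 251 to 522 TPM in KO to 1.48 to 42.3 TPM in KO inflamed. *Hba-a1*, a haemoglobin chain, was at 436, 255, 291 and 204 TPM in KO and 36.8, 1.68, 31.5 and 1.38 TPM in KO inflamed (log2 fold change -4.93, and -5.60 to -4.27 without 1 library). Neutrophil markers went from 276 ± 37.1 TPM (SD, n = 4) to 155 ± 38.0 TPM and B cell markers from 129 ± 6.61 TPM (SD, n = 4) to 72.6 ± 5.13 TPM. The dendritic cell sum went from 102 ± 18.4 TPM (SD, n = 4) to 121 ± 10.4 TPM (exact permutation test, p = 0.143), and the sum over every other whole list named here was at the smallest p of 0.0286. After rescaling the dendritic cell sum was 109.2 TPM in KO and 109.9 TPM in KO inflamed (exact permutation test, p = 0.943). By gene, 3 dendritic cell markers were tested, of which 1 fell and none rose.

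**Figure D4:**
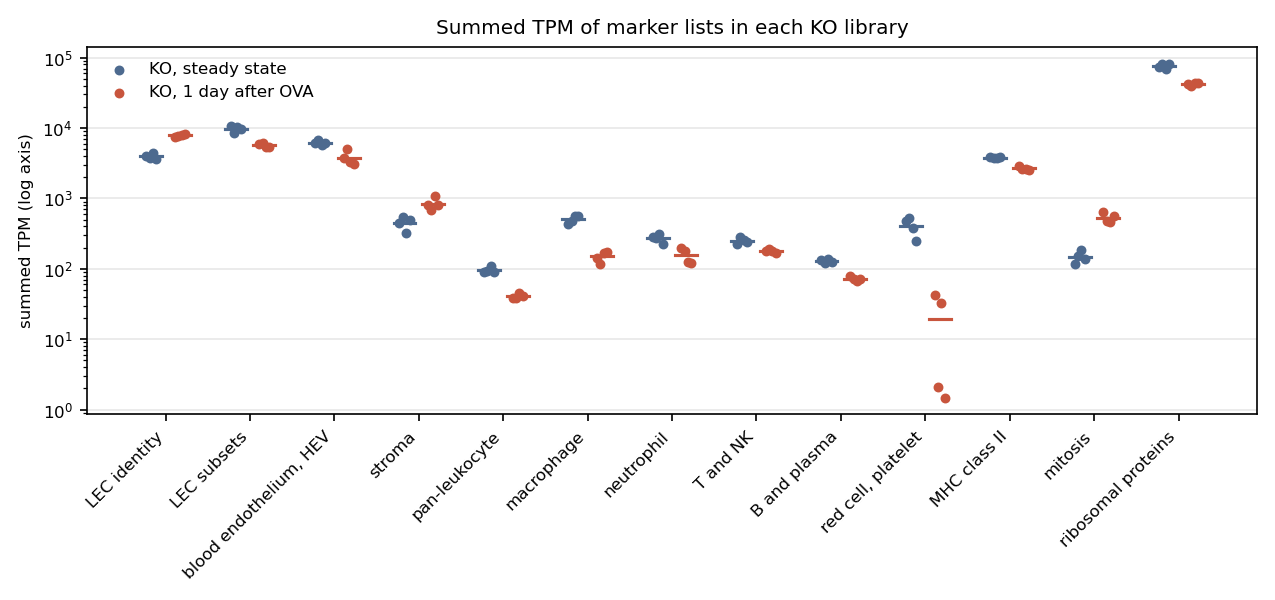
Summed TPM (log axis) of cell type marker lists and of MHC class II, mitosis and ribosomal protein genes, each point being a library and each line the mean of its group (KO in blue, KO inflamed in red). The leukocyte and red cell lists shown lie lower in the 4 KO inflamed libraries, and LEC identity, stroma and mitosis lie higher.

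By type of gene, the lower calls were unevenly spread: 314 of 11523 protein-coding genes fell (2.72%), 32 of 401 lncRNAs (7.98%) and 8 of 39 snoRNAs (20.5%). *Snora81*, which lies in *Eif4a2*, was at 948, 772, 367 and 793 TPM in KO and 44.2, 62.8, 47.7 and 86.1 TPM in KO inflamed (log2 fold change -3.52 ± 0.28), whereas its host gene was not called (log2 fold change -0.11). *Mir6398* within *Macf1* was listed at 0 in all 4 KO inflamed libraries, and *Mir7658* within *Klhl17* at 0 in all 4 KO libraries and at 33.0, 42.0, 34.9 and 48.1 TPM in KO inflamed. Reads of a small RNA and of the gene around it can be hard to tell apart, and the library kit primes on poly(A), so these values are uncertain. *Rn45s*, the precursor of ribosomal RNA, fell from 115, 111, 95.1 and 140.4 TPM to 24.3, 21.2, 18.1 and 16.9 TPM (log2 fold change -2.46 ± 0.14). *Xist* fell as well, from between 15.1 and 19.6 TPM in KO to between 4.20 and 6.18 TPM in KO inflamed (log2 fold change -1.50).

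The WT animals went through the same treatment, and their libraries share none with the KO comparison. WT inflamed replicate 2 stood apart from the other libraries: its LEC identity sum was 2745 TPM against 6515 to 7580.3 TPM in the other 3 WT inflamed libraries. WT values are therefore given without it, and the test with it is stated. With all libraries 239 genes rose and 237 fell in WT, and without that library 697 and 355.

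Most genes called in KO moved the same way in WT. Of 718 genes that rose in KO and were tested in WT without that library, 714 had a WT log2 fold change above 0, against 63.5% of all genes tested in both. Of 356 that fell, 345 were below 0 in WT. *Fgf23* had a log2 fold change of 4.43 in KO and 4.90 in WT, *Angpt2* of 2.72 and 1.91, *Ackr2* of 1.95 and 1.33, *Tlr3* of 1.43 and 1.55, and *Marco* of -1.54 and -2.10. The medians of the interferon lists were 0.89 and 1.15 in KO beside 1.57 and 1.66 in WT, with 32 and 18 genes called higher in WT. With all WT libraries the WT medians were 1.06 and 1.11, so that the order of the genotypes turned for the interferon-gamma-type list.

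The difference between the genotypes was tested as an interaction of genotype and OVA. With all 16 libraries none of 12684 genes was called (0%, limma), 542 had an unadjusted p under 0.05 (4.27%), and the lowest adjusted p was 0.0573. Without WT inflamed replicate 2, 6 of 12666 genes were called (0.0474%) and 899 had an unadjusted p under 0.05. The difference of KO minus WT responses was above 0 for *Supt16* (1.11), *Nt5dc2* (1.52), *Pttg1* (1.40), *Snord118* (1.22) and *Tmem218* (1.77). *Nt5dc2* had a log2 fold change of 1.09 in KO and -0.43 in WT, *Pttg1* of 0.88 and -0.52, and *Supt16* of 1.11 in KO and near 0 in WT. *Snord118* was lower after OVA in both genotypes, by less in KO (log2 fold change -1.46 in KO and -2.68 in WT), and the same order held for *Tmem218* (-0.42 and -2.19). *Rnase1* had a difference of -1.51, which is its change in KO, since it was listed at 0 in the WT libraries used. *Rnase1* passed the minimum of 1 TPM only through the KO libraries at steady state. After rescaling with the same library left out, 3 of the 6 were called, *Nt5dc2* (1.46), *Supt16* (1.04) and *Rnase1* (-1.61).

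*Nt5dc2* was at 258, 247, 284 and 297 TPM in KO and 617, 532, 557 and 616 TPM in KO inflamed, and at 56.7, 55.2, 59.4 and 52.5 TPM in WT and 40.3, 40.2 and 43.4 TPM in WT inflamed replicates 1, 3 and 4. The difference of responses was 1.52 ± 0.11 (SE, adjusted p = 4.29e-06). *Supt16*, a subunit of the histone chaperone FACT, was at 38.2, 36.0, 41.5 and 31.6 TPM and 81.0, 80.6, 72.3 and 87.1 TPM in KO, and at 12.9, 13.7, 13.1 and 17.1 TPM and 15.8, 13.7 and 12.9 TPM in WT, replicate 2 left out. Its KO groups did not overlap and its WT groups did. For *Nt5dc2* and *Supt16* every KO library was above every WT library at steady state already. Whether this standing difference between the genotypes bears on their responses was not tested. The methods give the KO line a mixed background, and its part in the genes called in the interaction was not tested either. The changes of *Nt5dc2* and *Supt16* within KO missed the size threshold after rescaling (0.85 and 0.87).

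The genes the study singled out were not called in this test. *Csf2* had a log2 fold change of 1.13 in KO and -0.10 in WT, a difference of 1.23 ± 0.55 (adjusted p = 0.675, without WT inflamed replicate 2). *Ackr2* had a difference of 0.62 ± 0.22 (adjusted p = 0.562) and *Tlr3* of -0.12 ± 0.23 (adjusted p = 0.946). *Ccr7* had a log2 fold change of -2.34 in KO and -0.81 in WT, *S100a9* of -2.79 and -0.62, and these differences were not called either (adjusted p = 0.361 and 0.620).

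**Figure D5:**
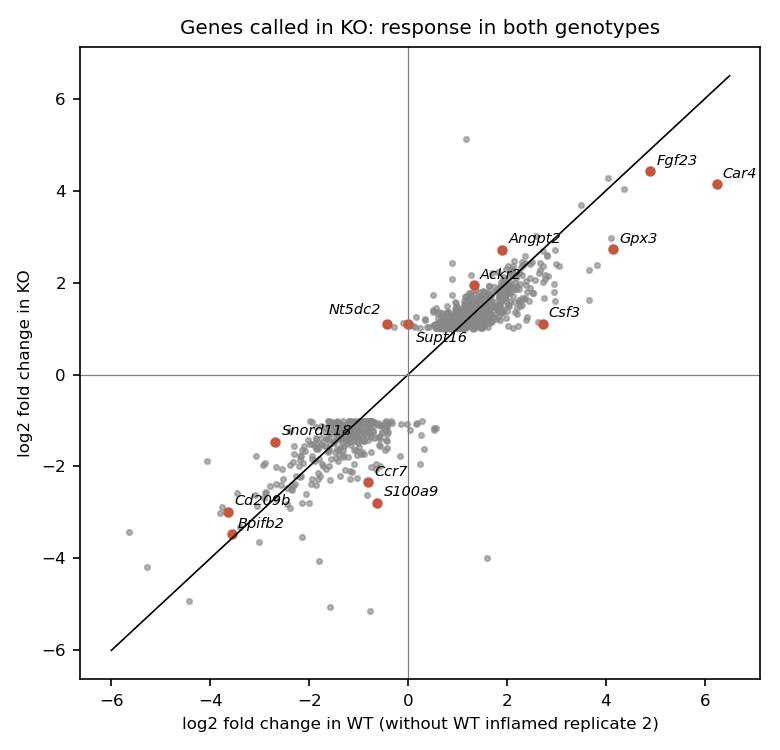
Log2 fold change after OVA in WT, without WT inflamed replicate 2 (horizontal axis), and in KO (vertical axis) for the 1074 genes called in KO and tested in WT, with the line of equal response. *Fgf23* and *Cd209b* lie near the line, *Car4* and *Gpx3* below it and *Ccr7* further from 0 in KO than in WT.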

How the data were processed

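Total RNA of sorted LECs was amplified with a SMART-Seq v4 kit and sequenced on an Illumina HiSeq instrument. The TPM values were made and deposited by the authors: the labels name STAR 2.5.2b, Subread and limma with build mm10, while the methods of the study name STAR, salmon and DESeq2, and which of these gave the TPM is not given in the sources used here. The tables hold 24946 gene names, of which 26 that a spreadsheet had turned into dates were left out. The 8 library columns that occur in a second table held the same values. The 7 other deposited tables hold the authors' own comparisons (log2 fold changes with their errors, q values and log2 mean normalized counts) and were not used. Because TPM keeps no depth, no counting interval was given and no count model was fitted.

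TPM was tested on the log2(TPM + 1) scale with limma 3.58.1 (lmFit, eBayes with trend, two-sided) in R 4.3.3, on the 8 KO libraries, with Benjamini-Hochberg adjustment over the 12161 genes that 4 or more libraries held at 1 TPM or above. The interaction of genotype and OVA was fitted over all 16 libraries. Summed marker TPM was compared by the exact permutation test (scipy 1.17.1). For rescaling, each library was divided by the median, over genes above 0 in all libraries, of its ratio to the geometric mean. The procedure was tested on simulated data for the KO comparison (12161 genes, 200 of them changed), where it recovered 98% of the genes changed by 1.5 and 100% of those changed by 3 on the log2 scale, with 1 false call. The changed genes were drawn from those with a KO mean above 3 on the log2(TPM + 1) scale. Noise was normal and independent between genes, and the whole distribution was not shifted. These rates therefore do not cover genes at lower levels or the shift seen in the data. Replicates are separate libraries by their labels, each of pooled mice, and p-values measure the spread between them.

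The text names the genes of the sort and the target, the genes the study names after OVA, the 12 highest and 12 lowest named genes without overlap and with at least 5 TPM in the higher group, up to 6 called members of each gene list, and up to 5 genes on each side of the interaction. Not every gene the rule takes is described, and genes outside it were picked after their values were seen. The comparison, the gene lists and the tests were chosen with earlier results of these data known, so no gene-set test was run, and only the summed levels of cell type markers were compared between the states. Promoter sequences, gene positions and gene types came from RefSeq (GRCm38.p6). The alternatives were other scalings, pseudocounts, filters and fits, and leaving out each library in turn. A few genes are not reported here.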

Additional observations from a re-analysis of the deposited data

Results flagged for a closer look

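In 370 groups of 4 libraries examined for the values named above, 1 library stood far from the other 3 in 20, about the 1 in 20 that chance gives (Dixon's test of the gap over the range). KO inflamed replicate 3 was highest for *Csf3* (86.7 TPM against 27.5 to 32.9 TPM), *Fgf23* (131 TPM against 76.5 to 83.7 TPM), *Akap12* (159 TPM against 82.6 to 90.7 TPM), *Dcn* (544 TPM against 234 to 269 TPM) and *Timp1* (205 TPM against 158 to 162 TPM). It was lowest for *Prox1* (82.5 TPM against 102 to 104 TPM) and *Xist* (4.20 TPM against 5.95 to 6.18 TPM).

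KO inflamed replicate 2 was lowest for the interferon-responsive genes *Oas2* (13.2 TPM against 34.2 to 38.1 TPM), *Iigp1* (408 TPM against 604 to 643 TPM), *Gbp7* (39.8 TPM against 59.0 to 60.2 TPM) and *Tlr3* (30.5 TPM against 43.6 to 45.2 TPM). It was highest for *Fut7* (10.8 TPM against 0.927 to 2.25 TPM) and *Pltp* (10.8 TPM against 4.20 to 5.09 TPM). KO inflamed replicate 4 was highest for *Ptx3* (68.8 TPM against 30.9 to 34.6 TPM) and replicate 1 for *Hspa5* (2501 TPM against 2184 to 2231 TPM).

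At steady state, KO replicate 4 was highest for *Ccl9* (5.50 TPM against 3.29 to 3.57 TPM) and lowest for *S100a9* (11.3 TPM against 16.8 to 17.4 TPM) and for the number of genes reaching 1 TPM (11898 against 12068 to 12095). KO replicate 3 was highest for *Aurkb* (6.89 TPM against 1.80 to 2.56 TPM), and KO replicate 2 for *Sh2d5* (0.266 TPM against 0 to 0.0380 TPM).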

How the results depend on the processing

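Scaling, the larger pseudocount and the size threshold each moved the counts by over 1.5 times. Against 780 genes higher and 372 lower as deposited, median-ratio rescaling gave 418 and 593, quantile normalization 447 and 550, a pseudocount of 5 TPM 347 and 192, and an adjusted p of at most 0.05 without the size threshold 5341 and 1989. Of the members of the 58 lists 180 were higher and 76 lower, against 116 and 116 after rescaling and 471 and 253 without the size threshold. Leaving out 1 library gave 684 to 900 genes higher and 306 to 399 lower, and 166 to 188 and 65 to 77 list members. The other filters and pseudocounts, the fit without trend, array weights and the fit of all 16 libraries stayed within 1.5 times of each count. Of 159 genes named above that were called, 118 kept the call under every alternative that could test them, 41 lost it under at least 1, and 10 of these without 1 library. None of the 169 genes named and tested changed sign.

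The interaction, with 0 genes called, had 2 after rescaling, 1 after quantile normalization, 1 with a pseudocount of 5 TPM, 2 without the filter, 1 without trend, 11 with array weights, and 0 to 6 without 1 library (6 without WT inflamed replicate 2, 2 without WT replicate 3, and 1 each without WT inflamed replicate 4 and KO inflamed replicate 3). Rescaling without WT inflamed replicate 2, an alternative chosen after seeing the data, gave 3. The stromal marker sum differed by 389 TPM as deposited and by 278 TPM after rescaling (exact permutation test, p = 0.0286 and 0.0571). The cause of these changes was not tested.

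With the replicate number as a block, 786 genes were higher and 385 lower, 180 and 77 list members were called, and no interaction was. The numbers do not pair the libraries by any label, and the correlations of same-numbered libraries' deviations were 0.06, 0.04, 0.00 and -0.02. Among the KO libraries, that of the same number correlated best for 1 of 4 KO inflamed libraries. Depth is unknown, and genes under about 1 TPM were not tested.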
